A study of Sus scrofa with 2 samples.

Results

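The genes described here are 5, namely CCKAR, CHRM3, PTGER3, ITPR2 and ITPR3. All but the prostaglandin receptor PTGER3 sit on the path from a secretory stimulus to calcium release in the acinar cell. The 5 genes were taken by symbol from the gene list of the matrices. All were found among 31908 genes, each on 1 row. One piece of pancreas from 1 WT and 1 PIGinH11 pig was studied by single-nucleus RNA sequencing, in which the RNA of each nucleus is tagged with a barcode and each molecule with a unique molecular identifier (UMI). Both were Bama pigs aged 18 months that ate control diet to month 6 and then, for 12 months, a high-fat and high-sucrose diet (HFHSD) of 37% sucrose, 53% control diet and 10% lard. The WT pig carried no transgene. The PIGinH11 pig carried GIPRdn, hIAPP and PNPLA3I148M at the H11 locus, driven by beta cell or liver promoters, so none was placed under an acinar promoter. Each group had 1 library, and the effects of genotype, animal, tissue piece and library cannot be told apart.

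An acinar cell releases its stored digestive enzymes when hormones or nerves raise its cytosolic calcium. Cholecystokinin binds the receptor encoded by CCKAR, and acetylcholine from the vagus nerve binds muscarinic receptors, of which the M3 receptor is encoded by CHRM3. Both couple through Gq to phospholipase C, whose product inositol trisphosphate opens calcium channels of the endoplasmic reticulum. These channels are encoded by ITPR1, ITPR2 and ITPR3, and the type 2 and type 3 channels are known for the apical calcium signal of acinar cells. PTGER3 encodes EP3, a receptor for prostaglandin E2 that couples mainly to Gi and lowers cyclic AMP.

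In RefSeq's annotation of Sscrofa11.1, the build to which the reads were aligned, CCKAR (ENSSSCG00000023501) lies at chr8:20187324-20200273 and spans 12950 bp. CHRM3 (ENSSSCG00000026176) lies at chr14:51818625-52363662 and PTGER3 (ENSSSCG00000003788) at chr6:141958955-142160437. ITPR2 (ENSSSCG00000000555) lies at chr5:46935923-47465681 and ITPR3 (ENSSSCG00000001518) at chr7:29835922-29901305. Nuclear RNA holds many intronic reads, and these genes differ widely in span, so each level below is compared across cells within 1 gene and never between genes. The paper's alignment summary gives the PIGinH11 library a lower exonic and a higher intronic share of reads than the WT library. The part of this difference in the ratios between the libraries was not tested.

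After filtering, 11854 WT and 13126 PIGinH11 nuclei remained, with a median of 3018.5 and 1167 UMIs, so the WT library was the deeper one. They were clustered without the 5 genes and grouped into 12 classes by marker genes, each called by its nearest cell type with the suffix "-like". Acinar-like nuclei numbered 8435 in WT and 9025 in PIGinH11, with a median of 2847 and 1200 UMIs. All 14 acinar markers were detected in both, with a median log2 ratio between the libraries of 0.01. Single markers went both ways, from −1.50 for CHN2, the 1 marker past 2-fold, to 0.61 for the transcription factor PTF1A and 0.46 for its partner RBPJL. Between the libraries, 60 barcode sequences recurred before filtering and 46 after it. Levels are given as CPM, the UMIs of a gene per 1000000 UMIs of its class. Intervals are exact 95% intervals (Poisson for a level, conditional binomial for a ratio, Clopper–Pearson for a share) and cover counting error only, not the spread between pigs. Those of levels, ratios and shares of UMIs treat each UMI as independent and leave out the spread between nuclei too.

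CCKAR and PTGER3 were the members with the highest level in acinar-like nuclei among the named classes in both libraries, and both were lower there in PIGinH11 than in WT. For PTGER3 in PIGinH11 the interval overlapped with that of the next class. ITPR2 was shared by acinar-like, endothelial-like and immune cells, and ITPR3 was higher in ductal-like, endothelial-like and Schwann-like than in acinar-like nuclei. CHRM3 was close to the limit of detection throughout. The plot of levels by class shows these patterns.

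**Figure D1:**
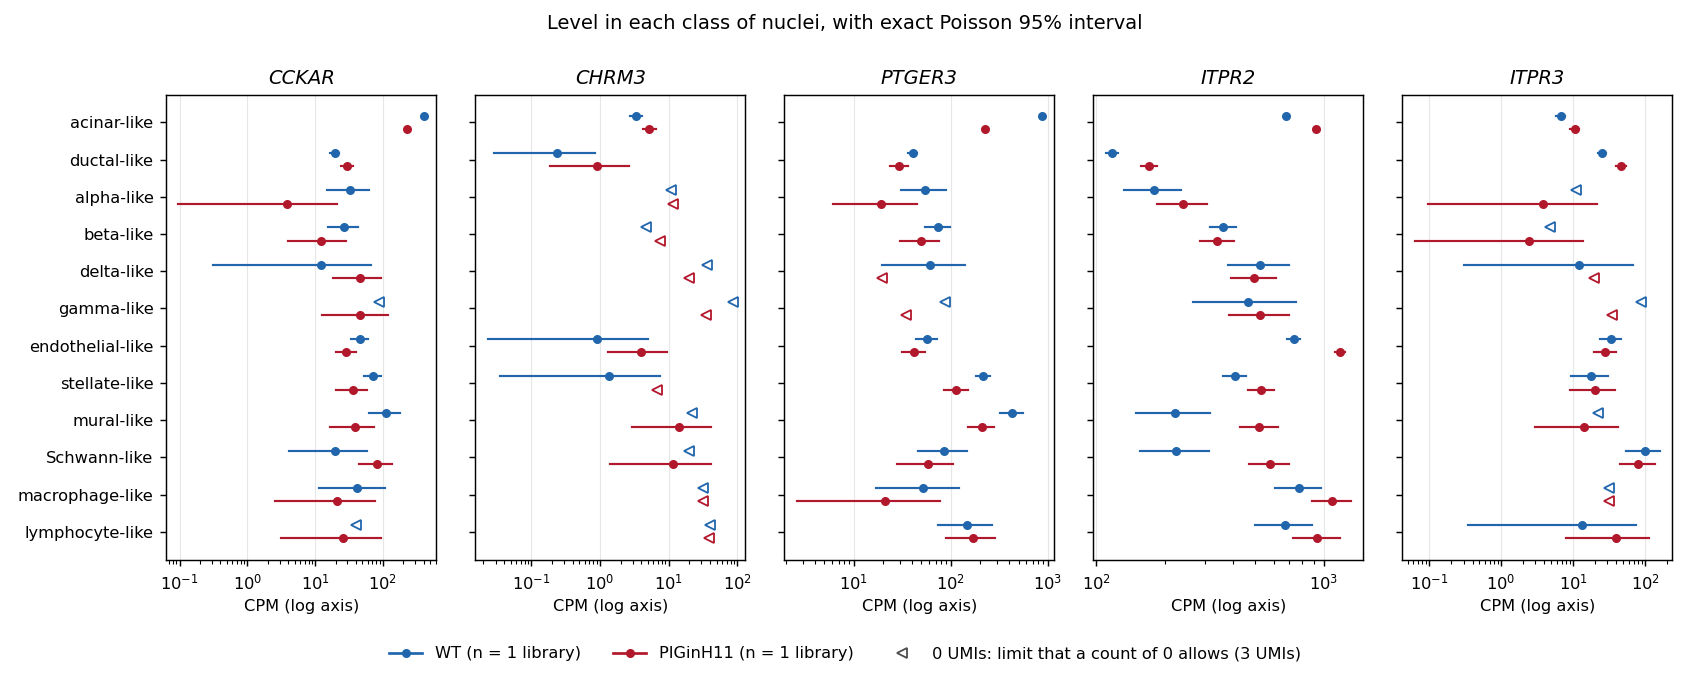
Level of each gene (CPM, log axis, a different range in each panel) in the 12 named classes of WT (blue) and PIGinH11 (red) nuclei, 1 library each; bars are exact Poisson 95% intervals and open triangles mark the limit of 3 UMIs that a count of 0 allows. CCKAR and PTGER3 stand highest in acinar-like nuclei, at 398 and 865 CPM in WT and 227 and 224 CPM in PIGinH11, while ITPR3 lies lower in acinar-like than in ductal-like nuclei.

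CCKAR, the cholecystokinin receptor, had 12016 UMIs in WT acinar-like nuclei, a level of 398 CPM (391 to 405). In PIGinH11 acinar-like nuclei it had 3514 UMIs, a level of 227 CPM (220 to 235). The level was 1.75 times higher in WT, a log2 ratio of PIGinH11 over WT of −0.81 (−0.86 to −0.75). At least 1 CCKAR UMI was found in 62.3% of WT and 25.5% of PIGinH11 acinar-like nuclei. In ductal-like nuclei, with a median of 3404 UMIs in WT and 1026 in PIGinH11, the share was 6.51% and 4.05%. With every nucleus thinned to 500 UMIs, which left out no acinar-like nucleus, the shares in acinar-like nuclei were 18.3% (17.5 to 19.1) and 9.44% (8.84 to 10.1). The share thus remained higher in the WT library at equal depth.

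Outside acinar-like nuclei, CCKAR was at 19.6 CPM in WT and 29.7 CPM in PIGinH11 ductal-like nuclei, the second largest class. All other named classes together had 26.8 CPM in WT and 29.9 CPM in PIGinH11. The fold of acinar-like nuclei over them was 14.9 in WT and 7.60 in PIGinH11. In WT, mural-like nuclei came next to acinar-like nuclei at 110 CPM, from 15 UMIs, and in PIGinH11, Schwann-like nuclei came next at 80.9 CPM, from 14 UMIs. The interval of acinar-like nuclei lay above that of the next class in both libraries, and no other neighbours in the order were separated by their intervals. UMIs of acinar markers were also found in the other classes. By which route they came there, and how much of these CCKAR levels is acinar RNA, was not determined. RBPJL stood in ductal-like nuclei at 2.91% of its acinar-like level in WT and 5.51% in PIGinH11, where CCKAR stood at 4.91% and 13.1%. In PIGinH11 Schwann-like nuclei RBPJL stood at 43.2% of its acinar-like level and CCKAR at 35.6%. The summed UMIs of digestive enzymes, a second measure of acinar RNA, stood at 38.2% and 16.6% in ductal-like nuclei, above CCKAR in both libraries. In WT, subtraction of free RNA in proportion to enzyme UMIs left −1600.1 of 319 CCKAR UMIs in the other named classes together. This second measure is therefore uncertain there.

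PTGER3, the EP3 prostaglandin receptor, showed the widest gap between the libraries of the 5 genes in acinar-like nuclei. WT acinar-like nuclei had 26116 UMIs, a level of 865 CPM (855 to 876), and PIGinH11 acinar-like nuclei had 3468 UMIs, a level of 224 CPM (217 to 232). The level was 3.85 times higher in WT, a log2 ratio of −1.95 (−1.998 to −1.895). At least 1 PTGER3 UMI was found in 69.5% of WT and 22.7% of PIGinH11 acinar-like nuclei, against 13.6% and 4.05% of ductal-like nuclei. Thinned to 500 UMIs, the acinar-like shares were 30.4% (29.4 to 31.4) and 9.07% (8.49 to 9.69). Without thinning, single nuclei reached 71 UMIs in WT and 22 in PIGinH11, and 22.5% of WT against 0.931% of PIGinH11 acinar-like nuclei held 5 or more. These counts per nucleus were not matched for depth, and the WT library was the deeper one.

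PTGER3 UMIs were also found in mesenchymal and immune cells. Mural-like nuclei, which hold markers of pericytes and smooth muscle, had 426 CPM (324 to 551) in WT and 210 CPM (152 to 282) in PIGinH11. In WT they stood below acinar-like and above stellate-like nuclei beyond their intervals, and in PIGinH11 the intervals of acinar-like and mural-like nuclei overlapped. Stellate-like nuclei, the matrix-producing cells, had 216 CPM (183 to 252) in WT and 114 CPM (84.6 to 149) in PIGinH11. In stellate-like nuclei PTGER3 stood at 24.9% of its acinar-like level in WT and 50.6% in PIGinH11, where RBPJL stood at 10.4% and 12.5% and the digestive enzymes at 53.7% and 19.4%. In mural-like nuclei PTGER3 stood at 49.3% and 93.5%, where RBPJL stood at 26.1% and 33.4% and the enzymes at 69.9% and 35.97%. PTGER3 thus lay between RBPJL and the enzymes in WT and above both in PIGinH11. In WT, subtraction of free RNA in proportion to enzyme UMIs left −3447 of 724 PTGER3 UMIs in the other named classes together. The enzymes are therefore an uncertain measure of acinar RNA there. Lymphocyte-like nuclei had 148 CPM in WT and 169 CPM in PIGinH11, from 11 and 13 UMIs. All other named classes had less than 100 CPM in both libraries. The log2 ratio between the libraries was −0.93 (−1.41 to −0.46) in stellate-like, −1.02 (−1.62 to −0.43) in mural-like and −0.46 (−0.80 to −0.13) in ductal-like nuclei. How much of these levels is acinar RNA was not determined.

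CHRM3, the M3 muscarinic receptor, was found at few UMIs. WT acinar-like nuclei held 100 UMIs, a level of 3.31 CPM (2.70 to 4.03), and PIGinH11 acinar-like nuclei 81 UMIs, a level of 5.24 CPM (4.16 to 6.52). The log2 ratio was 0.66 (0.22 to 1.10), and 1.17% of WT and 0.864% of PIGinH11 acinar-like nuclei held a UMI. Ductal-like nuclei held 2 UMIs in WT and 3 in PIGinH11, levels of 0.233 CPM (0.0282 to 0.841) and 0.901 CPM (0.186 to 2.63). The level in acinar-like nuclei thus lay above that in ductal-like nuclei beyond the counting intervals in each library. Alpha-like, beta-like, delta-like, gamma-like, macrophage-like and lymphocyte-like nuclei held 0 UMIs in both libraries. Taking 3 UMIs as the limit that a count of 0 allows, the level could be up to 4.75 CPM in WT beta-like nuclei, the deepest of these, and 87.0 CPM in the 5 WT gamma-like nuclei. A CHRM3 level like that of WT acinar-like nuclei was therefore not detectable in these classes. In PIGinH11, mural-like nuclei (14.3 CPM, 2.95 to 41.8) and Schwann-like nuclei (11.6 CPM, 1.40 to 41.8) stood above acinar-like nuclei, from 3 and 2 UMIs. Endothelial-like nuclei of PIGinH11 came next below acinar-like nuclei, at 4.02 CPM (1.30 to 9.37) from 5 UMIs. The intervals of all of these classes overlapped with that of acinar-like nuclei. Over all other named classes together, the fold of acinar-like nuclei was 9.87 in WT and 2.61 in PIGinH11.

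ITPR2, the type 2 inositol trisphosphate receptor, had 20632 UMIs in WT acinar-like nuclei, a level of 683 CPM (674 to 693). In PIGinH11 acinar-like nuclei it had 14243 UMIs, a level of 922 CPM (907 to 937). The level was 1.35 times higher in PIGinH11, a log2 ratio of 0.43 (0.40 to 0.46). At least 1 ITPR2 UMI was found in 74.6% of WT and 63.7% of PIGinH11 acinar-like nuclei, and after thinning to 500 UMIs in 27.8% and 35.2%. The order of the libraries in the share of nuclei thus turned with depth. By level and by thinned share, PIGinH11 was the higher library, opposite to CCKAR and PTGER3.

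The highest ITPR2 level was found in macrophage-like nuclei in WT (775 CPM, 608 to 973) and in endothelial-like nuclei in PIGinH11 (1180 CPM, 1120 to 1242). In WT the intervals of macrophage-like, endothelial-like (736 CPM), acinar-like and lymphocyte-like (674 CPM) nuclei overlapped with those of their neighbours in this order. In PIGinH11 the same 4 classes led, at 1180 CPM in endothelial-like, 1085 CPM in macrophage-like, 936 CPM in lymphocyte-like and 922 CPM in acinar-like nuclei, with Schwann-like nuclei next at 578 CPM. Ductal-like nuclei had the lowest level in both libraries, with 117 CPM in WT and 170 CPM in PIGinH11. Acinar-like nuclei were thus 5.86 and 5.42 times above ductal-like nuclei. Between the libraries the log2 ratio was 0.68 (0.56 to 0.81) in endothelial-like and 0.54 (0.39 to 0.69) in ductal-like nuclei, and −0.08 (−0.40 to 0.23) in beta-like nuclei. It was widest in Schwann-like nuclei, at 1.37 (0.80 to 1.98) from 34 and 100 UMIs, and in mural-like nuclei, at 1.24 (0.64 to 1.87) from 30 and 109 UMIs. RBPJL was higher in PIGinH11 in both classes too, at 1.69 and 0.81, and its part in these ratios was not tested.

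ITPR3, the type 3 receptor, went the other way across cells. WT acinar-like nuclei held 203 UMIs, a level of 6.72 CPM (5.83 to 7.72), and PIGinH11 acinar-like nuclei held 162 UMIs, a level of 10.5 CPM (8.93 to 12.2). Ductal-like nuclei had 25.5 CPM (22.2 to 29.1) in WT and 46.6 CPM (39.5 to 54.5) in PIGinH11, which was 3.79 and 4.44 times the acinar-like level. Endothelial-like nuclei had 33.5 CPM in WT and 28.1 CPM in PIGinH11. Schwann-like nuclei were highest, with 98.6 CPM (55.2 to 163) in WT from 15 UMIs and 80.9 CPM (44.3 to 136) in PIGinH11 from 14 UMIs. In WT they stood above endothelial-like nuclei beyond the intervals, and in PIGinH11 their interval overlapped with that of ductal-like nuclei. Macrophage-like and gamma-like nuclei held 0 ITPR3 UMIs in both libraries, for which the limit of 3 UMIs is 31.4 CPM in WT and 31.9 CPM in PIGinH11 macrophage-like nuclei. Ductal-like nuclei contributed 44.5% of all ITPR3 UMIs in WT and 39.7% in PIGinH11, although they were 18.1% and 16.7% of the nuclei. The log2 ratio between the libraries was 0.64 (0.33 to 0.95) in acinar-like and 0.87 (0.56 to 1.17) in ductal-like nuclei.

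The make-up of the receptor family differed between the exocrine classes. ITPR1, the type 1 receptor, had 30.7 CPM in WT and 60.8 CPM in PIGinH11 acinar-like nuclei, and 231 and 269 CPM in ductal-like nuclei. In acinar-like nuclei, ITPR2 took 94.8% (94.5 to 95.1) of the UMIs of the 3 genes in WT and 92.8% (92.4 to 93.2) in PIGinH11. In ductal-like nuclei ITPR2 took 31.3% (29.7 to 32.9) in WT and 35.0% (32.7 to 37.4) in PIGinH11, while ITPR1 took 61.9% and 55.4%. These shares are of UMIs, and they also carry the lengths of the genes. Since those lengths are the same in every class, it is the difference between classes that can be read. Within the islet, ITPR2 took 86.6% in WT and 80.6% in PIGinH11 beta-like nuclei, whereas ITPR1 took 77.9% and 74.6% in alpha-like nuclei. In both of these pairs the intervals were apart in each library. ITPR2 also took the largest share in endothelial-like, stellate-like, mural-like, Schwann-like, macrophage-like and lymphocyte-like nuclei of both libraries, and ITPR1 in gamma-like nuclei. RBPJL stood at 26.1% and 33.4% of its acinar-like level in mural-like nuclei of WT and PIGinH11. In Schwann-like nuclei RBPJL stood at 18.4% and 43.2%. How much acinar RNA adds to the ITPR2 shares outside acinar-like nuclei was not tested. In WT mural-like nuclei the intervals of ITPR2 (43.2 to 71.3%) and ITPR1 (28.7 to 56.8%) overlapped. Those of ITPR1 (45.2 to 65.3%) and ITPR2 (34.7 to 54.8%) overlapped in PIGinH11 gamma-like nuclei. In Schwann-like nuclei ITPR3 took 15 of 60 UMIs in WT (14.7 to 37.9%) and 14 of 141 in PIGinH11 (5.54 to 16.1%).

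**Figure D2:**
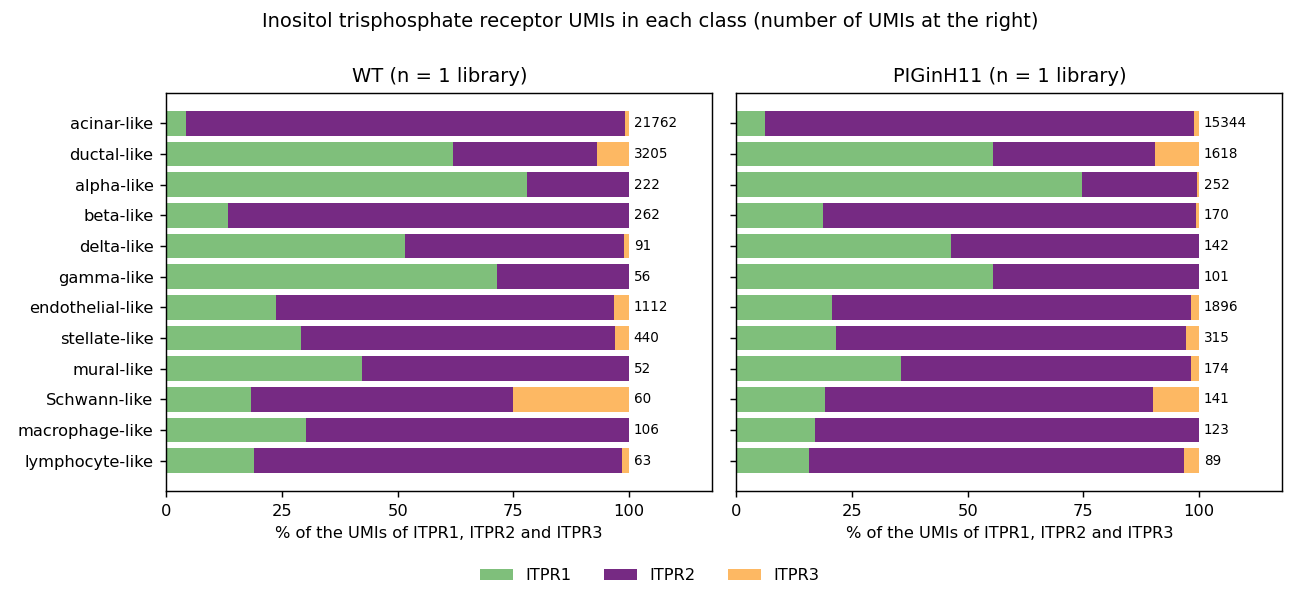
Share (%) of the summed UMIs of ITPR1 (green), ITPR2 (purple) and ITPR3 (orange) in each named class of the WT and the PIGinH11 library, with the summed UMIs at the right of each bar. In both libraries ITPR2 fills most of the bar in acinar-like (94.8% and 92.8%), beta-like, endothelial-like, stellate-like, mural-like, Schwann-like, macrophage-like and lymphocyte-like nuclei. ITPR1 fills most of it in ductal-like, alpha-like and gamma-like nuclei in both libraries. The shares also carry the lengths of the genes, so it is the difference between classes that can be read. The part of acinar RNA in the other classes was not tested.

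The differences between the libraries were read against all genes. All 5 members passed the minimum of 20 UMIs per library in acinar-like nuclei, and 1 of them, PTGER3, was at least 2-fold lower in PIGinH11, against 2.19% of 15720 genes tested. None of the 5 was at least 2-fold higher, against 16.3% of these genes. The median log2 ratio of all genes was 0.22, and relative to it the ratio was −1.03 for CCKAR, −2.17 for PTGER3, 0.44 for CHRM3, 0.21 for ITPR2 and 0.42 for ITPR3. On that scale CCKAR was also past 2-fold, against 3.79% of genes at least 2-fold lower. PTGER3 ranked 62nd from the lowest and CCKAR 542nd. In ductal-like nuclei, 4 members had enough UMIs (not CHRM3) and none passed 2-fold, against 1.72% of genes lower and 11.8% higher. In endothelial-like nuclei the same 4 members had enough UMIs and none passed, against 2.61% lower and 2.97% higher. In stellate-like nuclei only PTGER3 and ITPR2 had enough UMIs, and neither passed, against 1.71% lower and 3.85% higher, although PTGER3 was at −1.06 relative to the median of all genes there. In mural-like nuclei the same 2 members had enough UMIs, and PTGER3 passed lower, at −1.02, and ITPR2 higher, at 1.24, against 7.01% and 2.5% of 1398 genes. Relative to the median, PTGER3 was at −0.92 in mural-like nuclei. In Schwann-like nuclei ITPR2 alone had enough UMIs and passed higher, at 1.37, against 6.57% lower and 4.41% higher of 1430 genes. In alpha-like, beta-like, delta-like, macrophage-like and lymphocyte-like nuclei ITPR2 had enough UMIs, at ratios from −0.08 to 0.49, and PTGER3 in beta-like nuclei, at −0.59.

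**Figure D3:**
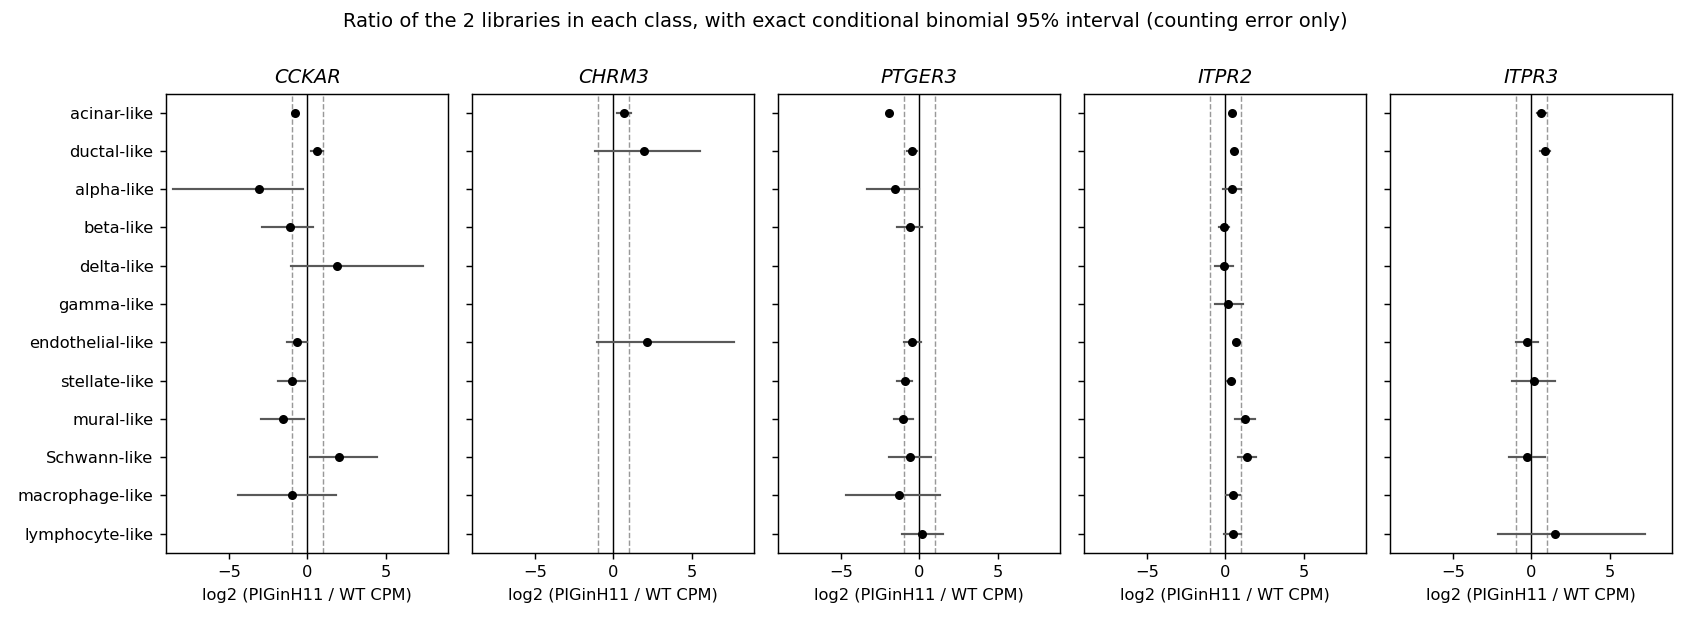
log2 ratio of PIGinH11 over WT (CPM) of each gene in the named classes where both libraries held a UMI; bars are conditional binomial 95% intervals and dashed lines mark 2-fold. PTGER3 lies at −1.95 in acinar-like nuclei, ITPR2 lies above 0 there at 0.43, and CCKAR lies on opposite sides of 0 in acinar-like (−0.81) and ductal-like (0.61) nuclei.

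Depth and cluster moved with the CCKAR difference and little with that of PTGER3 and ITPR2. In WT acinar-like nuclei CCKAR was at 549 CPM among nuclei with 1000 to 2000 UMIs and at 367 CPM among those with 4000 to 8000 UMIs, whereas in PIGinH11 it was at 222 and 251 CPM. The log2 ratio was accordingly −1.31 (−1.42 to −1.19) in the first of these ranges and −0.55 (−0.65 to −0.44) in the second. For PTGER3 it was −1.80 (−1.91 to −1.69) and −1.87 (−1.97 to −1.77), and for ITPR2 it was 0.40 (0.32 to 0.48) and 0.40 (0.34 to 0.46). The low-count members did not keep 1 direction over depth. For ITPR3 the ratio was 1.35 (0.03 to 3.04) among nuclei with 500 to 1000 UMIs, from 5 WT and 49 PIGinH11 UMIs, and −0.87 (−1.64 to −0.16) among those with 2000 to 4000 UMIs, from 65 and 22 UMIs. For CHRM3 it ran from −0.15 (−1.04 to 0.70) at 2000 to 4000 UMIs to 1.01 (−0.07 to 2.21) at 1000 to 2000 UMIs, with intervals that held 0 in every range.

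Acinar-like nuclei fell into 5 clusters, numbered 1, 2, 3, 4 and 7. CCKAR ranged in WT from 251 CPM in cluster 7, whose leading genes include the enzymes CELA2A, CEL and CPA1, to 532 CPM in cluster 3. In PIGinH11 it ranged from 159 CPM in cluster 3 to 271 CPM in cluster 7, so the order of the clusters was turned around. The log2 ratio of CCKAR ran from −1.74 (−1.90 to −1.58) in cluster 3 to −0.30 (−0.41 to −0.19) in cluster 4 and 0.11 (−0.13 to 0.35) in cluster 7. Without clusters 4 and 7 it was −1.10 over the class. The ratio of PTGER3 ran from −2.01 in cluster 1 to −1.49 in cluster 7, past 2-fold in all 5. That of ITPR2 ran from 0.33 in cluster 1 to 0.59 in cluster 7. In WT, clusters 4 and 7 were also the deepest, with a median of 4882 and 5930.5 UMIs against 1480 in cluster 2 and 1580 in cluster 3. Leading genes were ranked over the clusters of other classes, with both libraries pooled. CCKAR stood among the 10 leading genes of clusters 2 and 3 although it was not used for the clustering. This ranking does not set them apart from the other acinar-like clusters, and in PIGinH11 they had the lowest CCKAR levels of the 5, at 201 and 159 CPM. A cluster rich in digestive enzyme RNA, kept out of the class with 353 WT and 138 PIGinH11 nuclei, had CCKAR at 66.4 and 261 CPM, PTGER3 at 79.2 and 212 CPM and ITPR2 at 38.5 and 522 CPM. By CPM all 3 were higher in PIGinH11 there, as was RBPJL at 92.7 and 2023 CPM, and the median log2 ratio of all genes was 2.80. Relative to that median, CCKAR was at −0.83, PTGER3 at −1.38 and ITPR2 at 0.96.

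**Figure D4:**
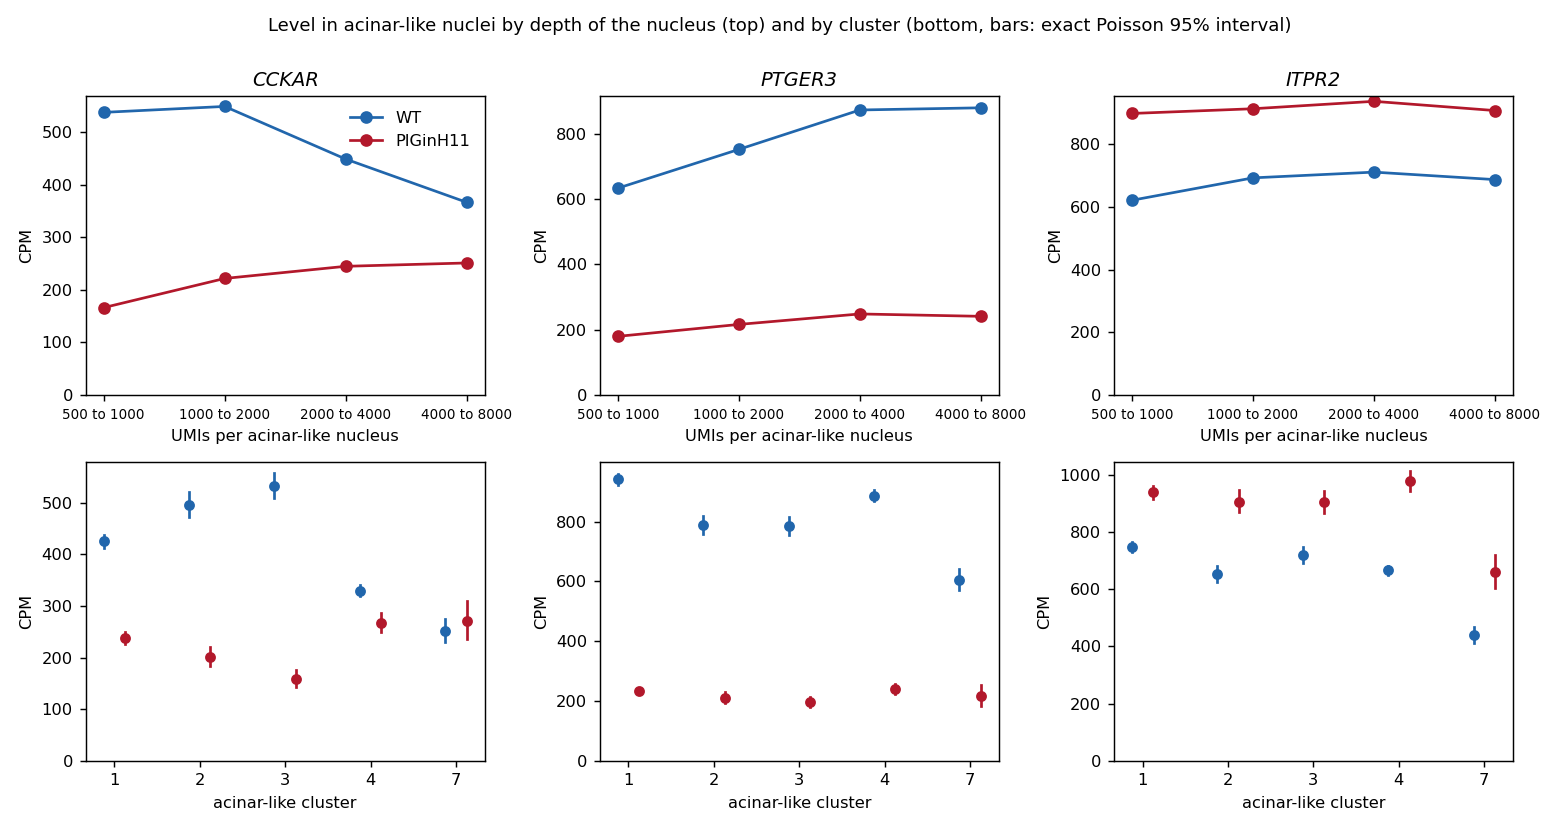
CPM of CCKAR, PTGER3 and ITPR2 in acinar-like nuclei of WT (blue) and PIGinH11 (red), by UMIs per nucleus (top) and by cluster with Poisson 95% intervals (bottom). The CCKAR libraries come closer with depth (549 against 222 CPM at 1000 to 2000 UMIs, 367 against 251 CPM at 4000 to 8000) and meet in cluster 7, while PTGER3 stays apart in every range and cluster.

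Whether the members were found in the same nuclei was read within a range of depth. Among WT acinar-like nuclei with 2000 to 4000 UMIs, PTGER3 was found in 75.5% (73.3 to 77.5) of nuclei with and 74.0% (71.0 to 76.8) of nuclei without a CCKAR UMI, and the intervals overlapped. Among PIGinH11 acinar-like nuclei with 1000 to 2000 UMIs it was found in 23.3% (20.3 to 26.5) and 21.7% (20.1 to 23.4). ITPR2 was found in 81.8% (79.9 to 83.7) of WT nuclei with and 75.8% (72.9 to 78.5) of those without CCKAR, where the intervals did not overlap. In PIGinH11 the shares were 69.4% (66.0 to 72.6) and 67.1% (65.2 to 69.0). Depth still varied within each range and the acinar-like clusters were pooled, and the part of either in these shares was not tested.

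A list of 80 genes around these members was read in the same way, and 74 carried their symbol in the matrices. Beside genes of calcium signalling it held Gs-coupled receptors and genes of prostaglandin synthesis and clearance. CCKBR, CHRM1, PTGDR, ABCC4, GNAS and RYR1 were not analysed here. In acinar-like nuclei 56 listed genes passed the minimum of 20 UMIs, of which 1 was at least 2-fold lower and 13 at least 2-fold higher in PIGinH11, beside 2.19% and 16.3% of all genes. Their median log2 ratio was 0.27, beside 0.22 over all genes. With a minimum of 100 UMIs, 42 listed genes were left, of which 1 was lower and 7 higher, beside 1.86% and 7.41% of all genes. Relative to the median of all genes the counts were 1 and 9 of 56, beside 3.79% and 10.3%.

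Among the other receptors, TACR1, the substance P receptor, was at 20.9 CPM in WT and 103 CPM in PIGinH11 acinar-like nuclei, a log2 ratio of 2.30 (2.16 to 2.43). HTR2A, a serotonin receptor that couples to Gq, was at 1.76 and 8.35 CPM, from 53 and 129 UMIs. CHRM2, the M2 muscarinic receptor, was at 130 and 176 CPM in acinar-like nuclei, from 3918 and 2716 UMIs, a log2 ratio of 0.44, and passed 2-fold in ductal-like nuclei only, at 7.80 and 18.3 CPM. GRPR, the receptor for gastrin-releasing peptide, was at 112 and 122 CPM in acinar-like nuclei, and passed 2-fold in ductal-like nuclei at 8.03 and 18.3 CPM. The acinar marker RBPJL was at 54.1 and 141 CPM in ductal-like nuclei. The part of acinar RNA in the ductal-like values of CHRM2 and GRPR was not tested. SCTR, the secretin receptor, was at 20.0 and 22.6 CPM in acinar-like and at 2416 and 1690 CPM in ductal-like nuclei.

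The other prostaglandin E2 receptors were read beside PTGER3. PTGER4, the Gs-coupled EP4 receptor, was at 39.0 CPM in WT and 28.7 CPM in PIGinH11 acinar-like nuclei, a log2 ratio of −0.44 (−0.61 to −0.29), and at 4.19 and 3.00 CPM in ductal-like nuclei. Like PTGER3 it was lower in PIGinH11 in acinar-like nuclei, and in stellate-like nuclei it was at 52.9 and 20.0 CPM, from 39 and 9 UMIs. PTGER2, the EP2 receptor, was at 0.861 and 2.27 CPM in acinar-like nuclei, from 26 and 35 UMIs, at 78.8 and 34.5 CPM in endothelial-like nuclei and at 39.3 and 8.91 CPM, from 29 and 4 UMIs, in stellate-like nuclei. Its level was higher in lymphocyte-like nuclei, at 350 and 78.0 CPM from 26 and 6 UMIs. In macrophage-like nuclei PTGER2 was at 52.4 and 106 CPM, from 5 and 10 UMIs. PTGER1 had 0 UMIs in WT and 1 in PIGinH11 acinar-like nuclei. PLA2G4A, the phospholipase that frees arachidonic acid, was at 8.02 and 18.6 CPM in acinar-like nuclei and at 6.75 and 20.4 CPM in ductal-like nuclei. SLCO2A1, the prostaglandin transporter, was at 2.15 and 6.41 CPM in acinar-like nuclei. It also led 1 of the 2 endothelial-like clusters, and whether its UMIs in acinar-like nuclei came from those cells was not tested. HPGD, which inactivates prostaglandins, passed 2-fold in ductal-like nuclei only, at 3.49 and 10.5 CPM.

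Downstream of the receptors, PLCB4, a phospholipase C, was at 15.1 CPM in WT and 32.5 CPM in PIGinH11 acinar-like nuclei, and GNA14, a G protein of the Gq family, was at 3.41 and 8.80 CPM. The ryanodine receptors RYR2 and RYR3, the other calcium release channels, were at 7.92 and 7.75 CPM in WT and at 21.0 and 17.9 CPM in PIGinH11. TPCN1, a calcium channel of endosomes and lysosomes, was the only listed gene past 2-fold lower in acinar-like nuclei, at 74.5 and 32.8 CPM, a log2 ratio of −1.18 (−1.33 to −1.05). The entry channel TRPC6, the exchanger SLC8A1 and the chloride channel ANO1 were also past 2-fold higher. They stayed below 19 CPM in acinar-like nuclei of both libraries, and TRPC6 was among the leading genes of mural-like nuclei. Whether UMIs of those cells were counted in acinar-like nuclei was not tested. In ductal-like nuclei 45 listed genes had enough UMIs, of which 2 were lower and 9 higher, beside 1.72% and 11.8% of all genes. The 9 higher genes included PLA2G4A, SLCO2A1, GNA14, RYR2, RYR3 and SLC8A1, which were past 2-fold higher in acinar-like nuclei too. The 2 lower genes were ATP2C2, a calcium pump of the secretory pathway (19.6 and 7.81 CPM), and PRKCA, a calcium-dependent protein kinase C (735 and 355 CPM). With a minimum of 100 UMIs, 28 listed genes were left in ductal-like nuclei, of which 1 was lower and 0 were higher, beside 1.41% and 3.94% of all genes.

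The genes whose levels went most alongside each member were sought over 24 points (12 classes in 2 libraries), among 8887 named genes with at least 500 UMIs. The points share libraries and depth, and some rest on few nuclei, so Pearson's r of log2(CPM + 5) is a description. For CCKAR the highest r were 0.86 for SLC7A11, the cystine transporter, 0.84 for LIPC, hepatic lipase, and 0.83 for TMED3. For PTGER3 they were 0.82 for PEDS1, 0.81 for FIBCD1 and 0.80 for PHF23. For CHRM3 they were 0.86 for F7, coagulation factor VII, 0.75 for MTMR8 and 0.74 for CD24. CHRM3 itself had 104 UMIs in WT and 97 in PIGinH11 over all classes, below the minimum of 500, so these r rest on few UMIs. For ITPR2 they were 0.76 for NLRC5, 0.75 for PRKAG2 and 0.72 for MAN2A1. For ITPR3 they were 0.80 for SOX10, a transcription factor of Schwann cells that was among the naming markers of that class, 0.78 for TYW3 and 0.78 for RSRC2. Between CCKAR and PTGER3 themselves r was 0.50, and between ITPR2 and ITPR3 it was −0.02.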

How the data were processed

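The authors deposited raw UMI counts per gene and barcode, made with Cell Ranger (3.1.0 in the submitters' processing notes, 5.0.0 in the file header) from reads aligned to Sscrofa11.1, before doublet removal and filters. Barcodes with 270 to 3700 genes, fewer than 13000 UMIs (the methods print 1300) and less than 10% mitochondrial UMIs were retained, and the top 0.8% of Scrublet scores per 1000 barcodes were removed in each library (10.9% and 12.0%, scanpy 1.11.5), in place of the study's DoubletFinder. The deposited matrices held 55784067 UMIs in WT and 26228811 in PIGinH11. Nuclei were clustered on 2000 variable genes per library, without the members, the pathway genes, ribosomal protein and mitochondrial genes, with 30 principal components, Harmony written in numpy, and Louvain at resolution 1 (igraph 0.11.9, 20 neighbours). Clusters were named where at least 3 fixed markers had a log2 fold of at least 1, and endocrine-like and immune-like nuclei were clustered again. Cluster 8 (rich in digestive enzyme RNA) and some endocrine and immune clusters stayed unnamed and enter no class, so a difference from the study may come from these names. UMIs were summed per class and library and scaled to the class total (CPM). With 1 library per group no test was made, and the background is the share past 2-fold among genes that reached 20 UMIs in both libraries. The steps for ratios and their intervals were run on simulated Poisson counts per class (scipy 1.17.1). These counts hold no spread between nuclei or pigs, so the run does not test how the intervals fare with such spread. The genes named are the 5 members, ITPR1, CCKBR, SCTR, CHRM1, PTGER1, PTGER2 and PTGER4, the listed pathway genes past 2-fold in acinar-like or ductal-like nuclei, and the 3 genes with the highest correlation to each member. One listed gene past 2-fold is not reported here by name. CHRM2 and GRPR in acinar-like nuclei were added beside their ductal-like values. Members, lists and markers were chosen with earlier results of these data known. Alternatives were no doublet removal, other limits on UMIs and genes, no Harmony, resolution 2, classes from marker UMIs, another denominator, the mean over nuclei, thinning to 500 UMIs, subtraction of free RNA and median-of-ratios scaling.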

Additional observations from a re-analysis of the deposited data

Results flagged for a closer look

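The log2 ratio of CCKAR in PIGinH11 over WT had intervals on opposite sides of 0 in different classes, and the difference between classes was not tested. It was −0.81 in acinar-like, −0.65 in endothelial-like, −0.99 in stellate-like, −1.53 in mural-like and −3.11 in alpha-like nuclei, and 0.61 in ductal-like and 2.04 in Schwann-like nuclei. The alpha-like value rests on 9 UMIs in WT and 1 in PIGinH11 (interval −8.56 to −0.26), and the Schwann-like value on 3 and 14 UMIs (0.20 to 4.48). RBPJL stood at 18.4% of its acinar-like level in WT and 43.2% in PIGinH11 Schwann-like nuclei, and at 2.91% and 5.51% in ductal-like nuclei. Digestive enzymes stood at 49.5% and 46.9% in Schwann-like and at 38.2% and 16.6% in ductal-like nuclei. The part of acinar RNA in these ratios was not tested. Among the named classes, no other member had intervals on both sides of 0.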

How the results depend on the processing

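The log2 ratio of PIGinH11 over WT in acinar-like nuclei was recomputed under 16 alternatives. It changed sign for ITPR3, at −0.87 in nuclei with 2000 to 4000 UMIs, and for CHRM3, at −0.15 in the same nuclei and −0.017 in those with 500 to 1000 UMIs. It ran from −1.69 to −0.55 for CCKAR, −2.17 to −1.77 for PTGER3, −0.15 to 1.01 for CHRM3, 0.21 to 0.53 for ITPR2 and −0.87 to 1.35 for ITPR3. PTGER3 was past 2-fold under all 16. CCKAR was past it under 7, at −1.55 with a UMI maximum of 1300, −1.15 as the mean over nuclei, −1.07 thinned to 500 UMIs, −1.03 with median-of-ratios scaling, −1.69 and −1.31 in nuclei with 500 to 1000 and 1000 to 2000 UMIs and −1.10 without clusters 4 and 7, and was at −0.87 and −0.55 in the deeper ranges. The ranges of depth, the leaving out of clusters 4 and 7 or of mural-like and Schwann-like nuclei and the counting of the enzyme-rich cluster as acinar-like were chosen after seeing the data. PTGER3 was at −1.77 with a UMI maximum of 1300, −2.17 with median-of-ratios scaling, −1.89 with the enzyme-rich cluster and −1.82, −1.80, −1.82 and −1.87 in the 4 ranges of depth. ITPR2 was at 0.48, 0.21 and 0.49 under the first 3 of these, at 0.53 and 0.40 in the 500 to 1000 and both middle ranges of depth, at 0.39 with enzyme, ribosomal protein and mitochondrial genes left out of the denominator and at 0.35 without clusters 4 and 7. ITPR3 was at 1.35 in nuclei with 500 to 1000 UMIs. The cause of these shifts was not tested.

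The fold of acinar-like nuclei was taken over the summed UMIs of all other named classes, in which the large ductal-like class weighed most. For ITPR2 the log2 fold was 2.55 in WT and 2.44 in PIGinH11 over ductal-like nuclei. Over endothelial-like nuclei it was −0.11 and −0.36. The mean log2 fold of acinar-like nuclei over the other named classes was 3.41 for CCKAR, 2.34 for CHRM3, 3.07 for PTGER3, 1.32 for ITPR2 and −1.77 for ITPR3. Without doublet removal it was 2.55 for CCKAR, 2.32 for PTGER3 and 1.16 for ITPR2, and with a UMI maximum of 1300 it was 2.46, 1.97 and 1.38. With classes from marker UMIs it was 2.19, 1.89 and 1.03, and −1.56 for ITPR3. Thinned to 500 UMIs it was 3.18, 2.56 and 1.40. As the mean over nuclei it was 3.21 for CCKAR and 2.68 for PTGER3, with the other denominator 1.40 for ITPR2, and without mural-like and Schwann-like nuclei 3.23 for PTGER3. Subtraction of free RNA in proportion to enzyme UMIs could not change the acinar-like values and gave −2.16 for ITPR3. For the other members it took away more UMIs than were there in WT, leaving −1600.1 of 319 CCKAR and −658 of 2637 ITPR2 UMIs. In PIGinH11 it left −66.8 of 194 CCKAR, 6.99 of 13 CHRM3, 37.7 of 295 PTGER3 and 1920 of 2977 ITPR2 UMIs. The mean of the 2 libraries thus had no value for these members. CHRM3 gave no value with a UMI maximum of 1300.

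The share of genes at least 2-fold lower in acinar-like nuclei was 3.53% with at least 1 UMI and 3.79% with median-of-ratios scaling, and that of higher genes was 7.41% with at least 100 UMIs, 26.6% with at least 1 UMI and 10.3% with median-of-ratios scaling. In ductal-like nuclei the lower share was 3.62% with at least 1 UMI and 2.81% with median-of-ratios scaling, and the higher share was 3.94% with at least 100 UMIs and 30.8% with at least 1 UMI. No paired analysis was possible because each group has 1 library. Among the named classes, fewer than 20 UMIs in 1 or both libraries were found for CHRM3 outside acinar-like nuclei. The same held for CCKAR and ITPR3 outside acinar-like, ductal-like and endothelial-like nuclei.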
